A study of Mus musculus with 20 samples.

Results

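The 8 genes described here digest, carry and trap dietary sugar in the small intestine: the disaccharidases Lct, Sis, Mgam and Treh, the sugar carriers Slc5a1, Slc2a2 and Slc2a5, and the fructose kinase Khk. They were chosen by name from the gene-level table of estimated counts, and all 8 were among the 35204 genes of that table and among the 16306 genes that were tested. RNA-seq was performed on pieces labelled as ileum from 20 young adult female wild-type C57BL/6 mice, in 4 groups of 5. Mice were fed for 3 weeks either a defined amino acid control diet (CD) or the same diet without tryptophan (TDD). On each diet, 1 group remained specific pathogen-free (SPF) and 1 group (CD+ABX or TDD+ABX) drank a cocktail of ampicillin, vancomycin, gentamycin, metronidazole and neomycin (ABX). According to the study's methods the antibiotic water was sweetened with sucrose, and no sweetening of the SPF mice's water is described. An effect of the antibiotics and an effect of sucrose in the water therefore cannot be told apart here. TDD mice also lost weight in the study, so that loss of weight and lack of tryptophan cannot be told apart either. The study reports a far milder loss in ABX-treated mice on TDD. Loss of weight therefore also enters the comparison of TDD+ABX with TDD mice and that of diet with and without ABX.

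Starch and disaccharides are split at the brush border of enterocytes, the absorptive cells of the villus. Sucrase-isomaltase (Sis) and maltase-glucoamylase (Mgam) release glucose from starch fragments, and Sis also splits sucrose into glucose and fructose. Lactase (Lct) splits lactose and trehalase (Treh) splits trehalose. Glucose and galactose then enter the cell with sodium through SGLT1 (Slc5a1), fructose enters through GLUT5 (Slc2a5), and GLUT2 (Slc2a2) passes these sugars on towards the blood. Ketohexokinase (Khk) phosphorylates fructose, the first step of its breakdown. These genes are known to respond to the sugar in the diet and to differ along the length of the small intestine.

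The libraries held 36676963 to 58662617 estimated counts, of which the 8 members took between 0.758% and 2.536%. Levels are given as CPM, in which each count is scaled to the size of its library, and q is the p-value of edgeR's quasi-likelihood test adjusted by the Benjamini-Hochberg method over all 16306 genes. Enterocyte markers were high in all mice, with 2491 to 5132 CPM of Vil1, the villin of the brush border. Markers of the ileum were mixed. Fabp6, the ileal bile acid binding protein, lay between 0.238 and 3.91 CPM in the 10 SPF mice, and Slc10a2, the ileal bile acid carrier, lay between 1.38 and 8.80 CPM. Other genes of the ileum list were present in SPF mice, with 123 to 237 CPM of Slc51a and 58.4 to 90.4 CPM of Slc51b. Gata4, a transcription factor known to be low in the distal ileum, was present at 75.1 to 118 CPM in all groups. Onecut2, from the same list of proximal markers as Gata4, lay between 0.628 and 3.17 CPM in SPF mice. The label of ileum is therefore kept here as the name of the piece of tissue and not as a statement on its markers. Smooth muscle markers summed to 483 to 2554 CPM, lymphocyte markers to 200 to 789 CPM, goblet cell markers to 5704 to 9724 CPM, Paneth cell markers to 8165 to 16967 CPM, crypt markers to 594 to 1399 CPM and colon markers to 46.6 to 72.6 CPM. Markers of pancreatic acinar cells summed to 219 CPM in CD mouse 5 and to between 3.75 and 5.69 CPM in the other 19 mice.

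**Figure D1:**
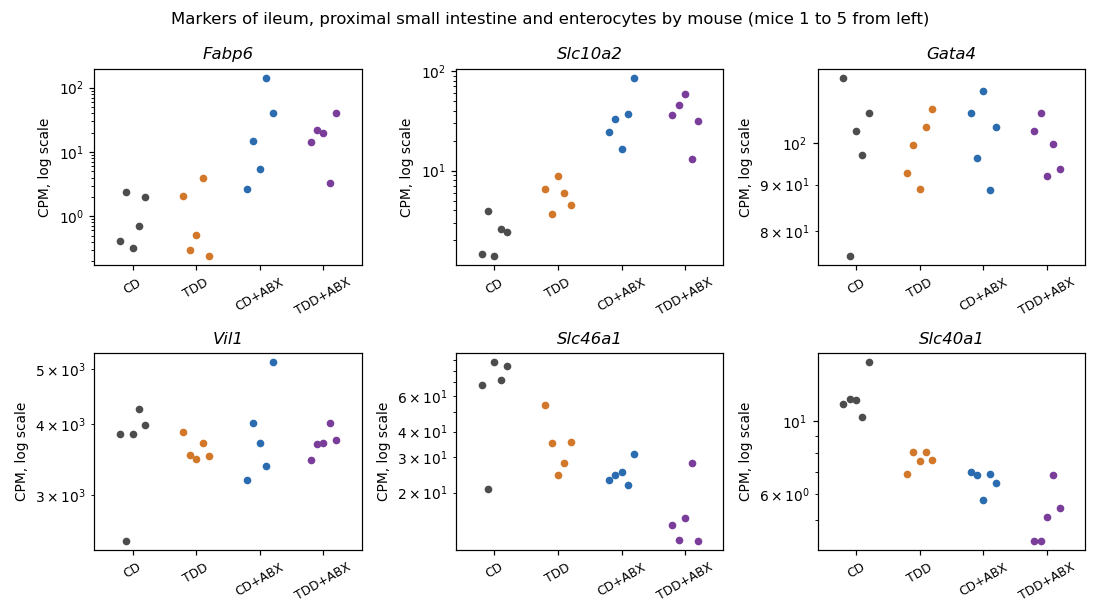
Level of 2 ileum markers (Fabp6, Slc10a2), 3 markers of the proximal small intestine (Gata4, Slc46a1, Slc40a1) and the enterocyte marker Vil1 in every mouse, as CPM on a log axis, by group. Fabp6 stayed at or under 3.91 CPM in SPF mice and reached 144 CPM in CD+ABX mouse 4, whereas Gata4 lay between 75.1 and 118 CPM throughout.

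The 250 bases before the RefSeq start (GRCm38.p6) are printed for 3 members that gave different results: Sis, which fell with ABX, Slc5a1, which rose on TDD in SPF mice, and Lct, which did not pass in any comparison. Capitals mark matches, on either strand, to the following letters: GTTAAT, which is part of the site of HNF1, TTTAT for the CDX factors, GATAA for the factors of the GATA family, CACGTG as the E-box and CAAAGT, which is part of the site of HNF4, and overlapping matches run together. Sis lies at chr3:72888557-72967863, Slc5a1 at chr5:33104219-33162870 and Lct at chr1:128284756-128328318. The other members lie at chr6:40628831-40769123 (Mgam), chr9:44673233-44686305 (Treh), chr3:28697903-28731359 (Slc2a2), chr4:150119283-150144169 (Slc2a5) and chr5:30921431-30931248 (Khk), in GRCm38 with the gene bounds of GENCODE M21.
Sis promoter, chr3:72967864-72968113, minus strand: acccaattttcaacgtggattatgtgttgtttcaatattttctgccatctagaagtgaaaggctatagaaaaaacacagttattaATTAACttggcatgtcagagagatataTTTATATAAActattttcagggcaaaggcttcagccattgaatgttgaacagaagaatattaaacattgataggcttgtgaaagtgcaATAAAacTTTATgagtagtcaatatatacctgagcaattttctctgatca
Slc5a1 promoter, chr5:33103969-33104218, plus strand: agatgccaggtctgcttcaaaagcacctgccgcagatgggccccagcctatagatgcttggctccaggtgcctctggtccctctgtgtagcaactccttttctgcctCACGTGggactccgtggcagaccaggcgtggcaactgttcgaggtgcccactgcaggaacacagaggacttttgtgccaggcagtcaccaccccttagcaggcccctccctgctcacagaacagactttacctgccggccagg
Lct promoter, chr1:128328319-128328568, minus strand: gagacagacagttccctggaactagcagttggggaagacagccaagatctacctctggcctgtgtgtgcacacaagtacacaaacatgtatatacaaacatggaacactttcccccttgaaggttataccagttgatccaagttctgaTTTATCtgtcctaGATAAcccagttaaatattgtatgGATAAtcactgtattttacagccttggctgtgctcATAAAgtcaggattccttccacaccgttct

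The Sis window was 31.6% GC and held 4 matches to TTTAT and 1 HNF1 match. The Lct window was 42.8% GC and held 2 matches to TTTAT and 3 to GATAA, and the Slc5a1 window, at 60% GC, held a single E-box. TTTAT occurred in 37.3% of 32841 RefSeq windows of this length, GATAA in 22.6%, CAAAGT in 12.6%, GTTAAT in 6.43% and CACGTG in 6.02%. Of the other members, Khk (67.2% GC) held 1 E-box and 1 HNF1 match, Mgam held 1 E-box, 2 matches to TTTAT and 2 to GATAA, Treh held 2 HNF4 matches, Slc2a2 held 1 HNF4 match and 1 match to GATAA, and Slc2a5 (66.4% GC) held none of the 5. These matches are a description of letters and show nothing on which factor was bound.

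Levels of the 8 genes were first compared with each other in TPM, which corrects counts for transcript length as well as library size. Summed over all transcripts of a gene, the mean order in CD mice ran from Sis at 2295 TPM, Mgam at 1473 TPM and Slc5a1 at 1001 TPM through Lct at 556 TPM and Khk at 463 TPM to Slc2a2 at 186 TPM, Treh at 161 TPM and Slc2a5 at 76.6 TPM. The starch and sucrose enzymes and the glucose carrier thus stood above the lactose and trehalose enzymes, and the fructose carrier came last. Ranges of neighbours overlapped in CD mice for Sis and Mgam, Lct and Khk, Slc2a2 and Treh, and Treh and Slc2a5. The position of Sis rested partly on a short transcript with a retained intron, Sis-203, which held 39.1% ± 3.55 (SD, n = 5) of its TPM in CD mice. With protein-coding transcripts alone, Sis had 1405 TPM ± 325 and Mgam 1470 TPM ± 258 (SD, n = 5), which differed by less than the spread between mice. In both ABX groups Mgam came first in the mean, at 1133 TPM in CD+ABX and 1512 TPM in TDD+ABX, with Sis next at 1054 and 1493 TPM and overlapping ranges. In TDD mice the order of this pair turned with the transcripts counted: over all transcripts Sis (2344 TPM) stood above Mgam (2059 TPM), and over protein-coding transcripts Mgam (1832 to 2139 TPM) stood above Sis (1464 to 1647 TPM), without overlap in either case.

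**Figure D2:**
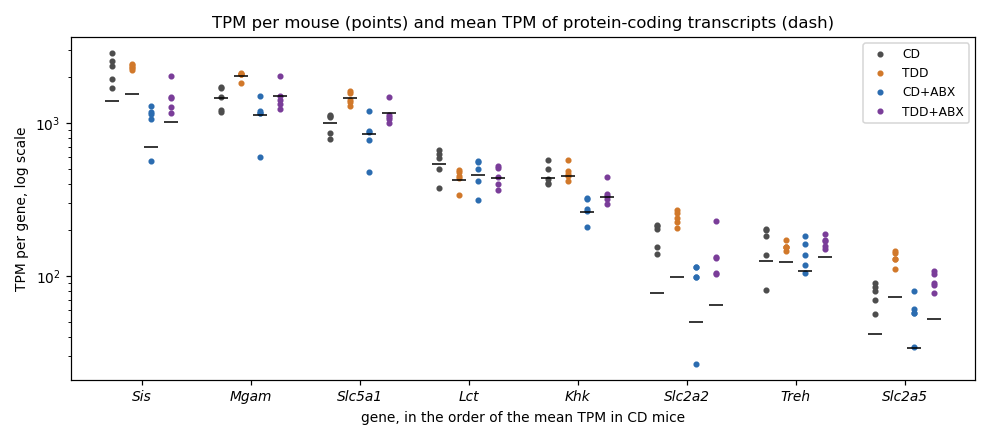
TPM of each of the 8 genes on a log axis, with 1 point per mouse, colours for the 4 groups and a dash for the group mean of the protein-coding transcripts alone. Sis, Mgam and Slc5a1 lead in each group and Slc2a5 comes last, and the dash lies under the points of its group for Sis, Slc2a2 and Slc2a5 except in CD+ABX, where it lies above mouse 4 for Sis and Slc2a2 and level with it for Slc2a5.

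Whether lack of tryptophan altered sugar handling was addressed first in SPF mice. Of the 8 members, 2 rose on TDD, the fructose carrier Slc2a5 and the sodium-glucose carrier Slc5a1, and 0 fell. Over all genes tested 14.4% passed this test, and 6.65% passed it in the upward direction. The median log2 fold change of the members was 0.31, against 0.01 over all genes, and 7 of the 8 estimates were above 0, though that of Treh was so near 0 that its sign turned with the scaling.

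Slc2a5 was measured at 128, 100, 118, 130 and 88.3 CPM in CD mice 1 to 5 and at 234, 208, 171, 231 and 197 CPM in TDD mice 1 to 5. Every TDD mouse was above every CD mouse. The means were 113 ± 18 and 208 ± 26.0 CPM (SD, n = 5), a 1.84-fold rise (log2 fold change 0.88, SE 0.18, q = 0.00286), and the call was kept in each of the 20 fits that left out 1 mouse.

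Slc5a1 was measured at 3478, 2382, 3398, 3596 and 2775 CPM in CD mice 1 to 5 and at 5535, 4165, 4313, 4770 and 5095 CPM in TDD mice 1 to 5. Again the groups did not overlap. The rise was 1.53-fold (log2 fold change 0.61, SE 0.19, q = 0.0337). This call was the weaker of the pair: q lay between 0.0123 and 0.0933 in the 20 fits that left out 1 mouse, and it missed the threshold without CD mouse 2 or 5 and without TDD mouse 1, 3, 4 or 5.

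Mgam also did not overlap between these groups, with 4276 to 6625 CPM in CD mice and 7044 to 8608 CPM in TDD mice, but its estimate (log2 fold change 0.55, SE 0.19) did not pass the adjusted test (q = 0.0635). It passed with DESeq2 (q = 0.0306), with upper-quartile scaling (q = 0.0493) and with these 2 groups fitted alone (q = 0.0363). Over all genes, 4.68% were higher without overlap in TDD mice, and among the members these were Mgam, Slc5a1 and Slc2a5. Slc2a2 lay at 315 to 548 CPM in CD and 529 to 667 CPM in TDD mice (q = 0.353). For Sis (log2 fold change 0.20, SE 0.20, q = 0.564), Khk (0.10, SE 0.14, q = 0.692) and Treh (0.00, SE 0.20, q = 0.996) no difference could be shown at this spread. Lct was the single member with an estimate under 0 (-0.29, SE 0.18, q = 0.298). CD mouse 2 had the lowest level of 7 of the 8 members in its group, and its enterocyte markers summed to 18043 CPM against 36806 to 41742 CPM in the other CD mice. When this mouse and CD+ABX mouse 4 were left out, 4 members passed: Slc2a5 and Slc5a1 as before, Mgam (log2 fold change 0.46, q = 0.0329) and, in the opposite direction, Lct (-0.42, q = 0.0342). These mice were chosen after the data were seen, and the share of all genes in that fit is not given here.

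Markers of position along the gut also moved in this comparison. Of 9 ileum markers 1 fell and 0 rose: Fgf15, an ileal hormone released in response to bile acids, was at 44.7 to 92.9 CPM in CD and 4.32 to 13.5 CPM in TDD mice (log2 fold change -3.03, q = 0.00392). Of 8 markers of the proximal small intestine 1 fell and 0 rose, the iron exporter Slc40a1 (-0.65, q = 0.00131). Their part in the rise of Slc2a5 and Slc5a1 was not tested.

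Other carriers of the same families were compared for context. Of 16 tested, 3 rose on TDD in SPF mice and 0 fell, where 6.65% of all genes passed upward. These were Slc2a7, another hexose carrier of the intestine (log2 fold change 0.85, q = 0.0242), Slc2a9, a urate carrier (0.52, q = 0.0153), and Slc2a1, which carries glucose in most cells (0.30, q = 0.0116). For diet in ABX-treated mice 0 passed. With ABX, 2 rose and 1 fell on CD, and 1 rose and 1 fell on TDD. Slc5a4b rose on both diets (0.63, q = 0.0396 on CD; 0.71, q = 0.0195 on TDD) and Slc2a3 fell on both (-0.59, q = 0.0193; -0.66, q = 0.00999). Among 12 genes of fructose and triose entry, 1 rose on TDD in SPF mice and 0 fell. This was Akr1b8, an aldose reductase (0.64, q = 0.0073), while Tkfc, a kinase further along the fructose pathway, did not pass (-0.34, q = 0.257).

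In ABX-treated mice, the same comparison of diets gave 0 calls among the 8 members, against 1.64% of all genes. At an unadjusted p under 0.05 edgeR counted 3 members, and 2400 of all 16306 genes. DESeq2 called 1 member at q under 0.05, limma-voom 0, and limma on log2 TPM 1, and shares of all genes are not given for these. Slc2a5 came nearest. It was measured at 90.9, 90.9, 95.4, 50.1 and 132 CPM in CD+ABX mice 1 to 5 and at 113, 133, 150, 153 and 132 CPM in TDD+ABX mice 1 to 5, with CD+ABX mouse 5 inside the range of the TDD+ABX mice (log2 fold change 0.57, SE 0.18, q = 0.116). DESeq2 put it at q = 0.0473. The estimates of the members had a median of 0.38, and 7 of 8 were above 0, as in SPF mice.

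Passing in SPF mice and missing in ABX-treated mice does not show that the diet acted differently, and the interaction of diet and ABX was tested for this. It passed for 0 of the 8 members with edgeR, whose lowest q was 0.781, for 0 at an unadjusted p under 0.05, and for 0 with DESeq2 and with limma. Over all genes 0.0368% passed with edgeR, and 1446 of 16306 genes had an unadjusted p under 0.05. For Slc2a5, the change with diet was smaller in ABX-treated mice by 0.31 on the log2 scale, with an SE of 0.25.

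**Figure D3:**
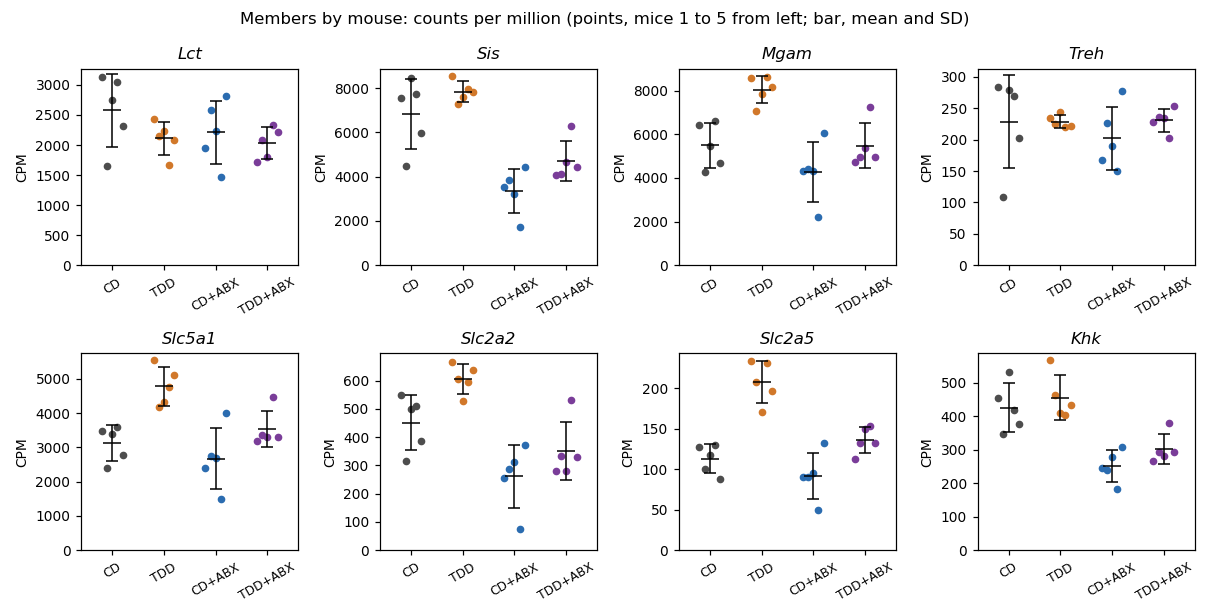
CPM of each member in every mouse (points, mice 1 to 5 of a group from left to right) with the group mean and SD (bars), on axes that start at 0. Slc2a5 and Slc5a1 are higher in every TDD mouse than in every CD mouse, and Sis and Khk are lower in every ABX-treated mouse than in every SPF mouse on the same diet.

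The second question was how ABX treatment altered these genes on each diet. On CD, 2 of the 8 members fell, Sis and Khk, and 0 rose, where 12.6% of all genes passed and 7.37% passed downward. On TDD, 3 members fell, Sis, Khk and Slc2a5, and 0 rose, where 15.4% of all genes passed and 8.22% passed downward. Without CD mouse 2 and CD+ABX mouse 4, 3 members passed on CD and 6 on TDD, with Slc2a2 added on both diets and Mgam and Slc5a1 on TDD. These mice were chosen after the data were seen, and the shares of all genes in that fit are not given. Neither mouse was on TDD, so the mice compared there were the same and the calls moved with the shared fit. Sis and Khk share a sugar, since the first releases fructose from sucrose and the second phosphorylates fructose. The median log2 fold change of the members was -0.33 on CD and -0.57 on TDD, against a median of 0.00 and -0.03 over all genes. The comparisons of diet and of ABX share groups, so their values are given side by side and not as separate evidence.

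Sis was measured at 7573, 4492, 8442, 7723 and 5975 CPM in CD mice 1 to 5 and at 3551, 3853, 3221, 1736 and 4445 CPM in CD+ABX mice 1 to 5. The highest ABX-treated mouse lay just under the lowest SPF mouse. The fall was 2.04-fold (log2 fold change -1.03, SE 0.20, q = 0.00313), and Sis on CD was the single member that passed with a change of 2-fold or more in any comparison. Over all genes, 2.25% passed that rule with ABX on CD, with 1.67% of all genes downward, against 1.63% with ABX on TDD, 1.83% for diet in SPF mice and 0.307% for diet in ABX-treated mice. On TDD, Sis went from 8549, 7270, 7619, 7984 and 7842 CPM in mice 1 to 5 to 4057, 4118, 4651, 6275 and 4441 CPM in TDD+ABX mice 1 to 5. There was no overlap, and the fall was 1.67-fold (log2 fold change -0.74, SE 0.20, q = 0.0204). The call on CD at q under 0.05 was kept whichever mouse was left out. Its log2 fold change then ran from -1.15 to -0.85, so that the change of 2-fold was not kept in every fit. On TDD q rose to as much as 0.0622 and the call was lost without TDD+ABX mouse 1, 2 or 3.

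Khk was measured at 456, 348, 533, 419 and 376 CPM in CD mice 1 to 5 and at 247, 239, 280, 184 and 309 CPM in CD+ABX mice 1 to 5. On TDD it was 569, 464, 411, 405 and 433 CPM in mice 1 to 5 and 266, 295, 281, 379 and 295 CPM in TDD+ABX mice 1 to 5. On both diets every ABX-treated mouse was below every SPF mouse. The falls were 1.69-fold on CD (log2 fold change -0.76, SE 0.14, q = 0.00201) and 1.51-fold on TDD (-0.59, SE 0.14, q = 0.00999), and neither call was lost when any 1 mouse was left out.

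Khk is known to be spliced into the KHK-A and KHK-C forms through the use of 1 of 2 neighbouring exons, and transcript shares bear on this. Both exons have 135 bases, and they are printed from the GENCODE transcripts because the shares of Khk rest on them. Capitals mark the positions at which they differ, and 73 positions (54.1%) are the same.
Khk-205, exon 3, chr5:30926688-30926822, plus strand: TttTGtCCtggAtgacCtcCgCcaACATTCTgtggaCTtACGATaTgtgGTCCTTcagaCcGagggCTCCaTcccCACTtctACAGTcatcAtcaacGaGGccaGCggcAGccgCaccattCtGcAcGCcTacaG
Khk-204, exon 3, chr5:30927022-30927156, plus strand: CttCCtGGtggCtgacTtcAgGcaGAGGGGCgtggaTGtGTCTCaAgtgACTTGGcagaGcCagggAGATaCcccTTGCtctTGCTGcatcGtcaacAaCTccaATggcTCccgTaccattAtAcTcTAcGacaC

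Khk-204, with the downstream exon, held 50.5% ± 2.22 of the TPM of Khk in CD mice, Khk-201, whose model contains both exons, held 30.5% ± 1.13, and the short Khk-205, with the upstream exon, held 9.78% ± 0.925 (SD, n = 5). The downstream exon was thus in the main transcript in every group, where Khk-204 held 46.4% to 50.5%. Khk-205 had 12.6% ± 1.53 in TDD and 13.0% ± 1.76 in CD+ABX mice (SD, n = 5), an exact permutation p of 0.0159 against CD mice in both cases. After adjustment over 84 tests of 21 transcripts of 7 genes, no share passed, and the lowest q was 0.148 for these and others, with 18 tests at an unadjusted p under 0.05. The largest difference was in Slc2a2: the full-length coding transcript Slc2a2-201 held 41.7% ± 2.55 in CD and 54.6% ± 5.17 in CD+ABX mice (SD, n = 5; exact permutation p = 0.00794, q = 0.148). Slc5a1 had a single transcript, and Mgam-201 and Mgam-202 were given equal values in all mice, so that their tests repeat each other.

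Slc2a5 fell 1.53-fold with ABX on TDD (log2 fold change -0.61, SE 0.18, q = 0.0266), from 171 to 234 CPM in TDD mice to 113 to 153 CPM in TDD+ABX mice, without overlap. It did not pass on CD (-0.30, SE 0.18, q = 0.309), and the call on TDD was lost without TDD mouse 1 or 4 and without TDD+ABX mouse 1 or 2. The groups did not overlap for Sis and Khk on CD and for Sis, Khk and Slc2a5 on TDD, where 5.88% and 5.05% of all genes were lower without overlap. Slc2a2 varied more between mice than Sis. Its estimate was -0.79 (SE 0.29) on both diets, with q = 0.0769 on CD and q = 0.0674 on TDD, and on CD it passed with DESeq2 (q = 0.0341) and with limma on log2(TPM + 1) (q = 0.0241). CD+ABX mouse 4 had 75.9 CPM of Slc2a2 against 254 to 374 CPM in the other CD+ABX mice.

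Mgam, the partner of Sis in starch digestion, stayed short of the threshold on both diets (-0.36, q = 0.241 on CD; -0.56, q = 0.0561 on TDD), as did Slc5a1 (-0.23, q = 0.486; -0.44, q = 0.116). Lct (-0.22, q = 0.465; -0.06, q = 0.855) and Treh (-0.18, q = 0.621; 0.01, q = 0.979) had the estimates nearest to 0. Whether Lct and Treh differed from Sis in their change was not tested.

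**Figure D4:**
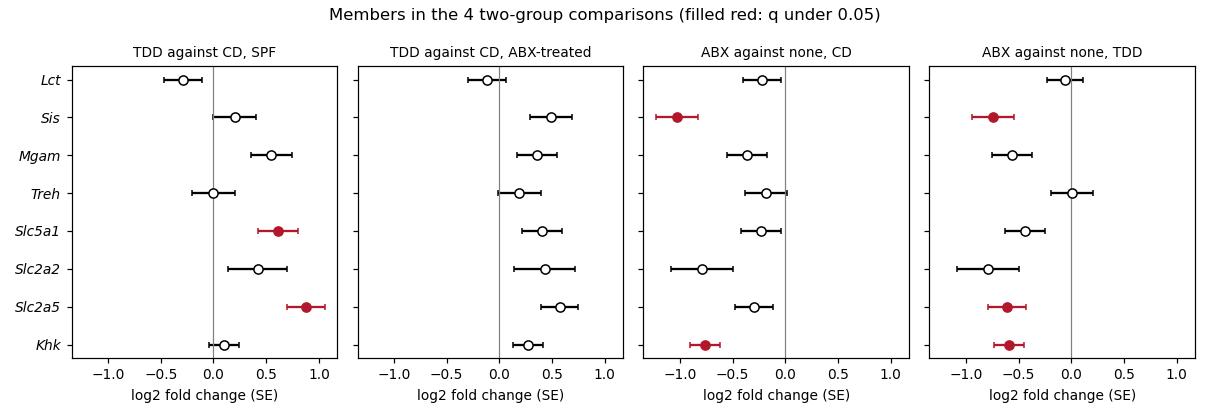
Log2 fold change with its SE for each member in the 4 two-group comparisons, filled red where q was under 0.05. Slc5a1 and Slc2a5 pass to the right in SPF mice on TDD, and Sis and Khk pass to the left with ABX on both diets.

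In bulk tissue, fewer cells of a type and less RNA per cell cannot be told apart. The 14 enterocyte markers summed to 35131 ± 9739 CPM in CD, 37959 ± 3228 CPM in TDD, 34224 ± 6961 CPM in CD+ABX and 37390 ± 1594 CPM in TDD+ABX mice (SD, n = 5). With all mice, none of the 4 two-group differences passed a two-sided exact permutation test (p = 0.77 for diet in SPF mice, 0.373 for diet in ABX-treated mice, 0.865 for ABX on CD and 0.762 for ABX on TDD). Without CD+ABX mouse 5, the sum was higher in TDD+ABX than in CD+ABX mice by 6117 CPM (exact permutation p = 0.0159). Single markers did pass in edgeR. With ABX on CD, Fabp2 (log2 fold change 1.2, q = 0.000543) and Slc15a1 (0.93, q = 0.00646) rose and Apoa4 fell (-1.61, q = 0.00593). With ABX on TDD 1 marker rose and 1 fell. For diet, 2 rose and 0 fell in SPF mice, and 0 passed in ABX-treated mice. Relative to the mean log2 level of the 14 enterocyte markers, the log2 difference with ABX was -1.15 on CD and -0.78 on TDD for Sis. It was -0.86 and -0.61 for Khk and -1.04 and -0.85 for Slc2a2. With ABX on TDD it was -0.6 for Mgam and -0.63 for Slc2a5. For diet in ABX-treated mice it was 0.56 for Slc2a5 and 0.39 for Slc5a1. All of these were without overlap and at p = 0.00794, the smallest that an exact permutation test of 5 against 5 mice can give. On TDD in SPF mice, Slc2a5 was higher by 0.75 on this scale, Slc5a1 by 0.48 and Mgam by 0.43, each now with overlap (exact permutation p = 0.0159 for each). Lct in the same comparison had a difference of -0.40 without overlap (exact permutation p = 0.00794). These ratios were chosen after the data were seen and were computed for 32 pairs of member and comparison, without adjustment.

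Markers of position moved with ABX as well. Of 9 ileum markers, 4 rose on CD and 3 on TDD and 0 fell, led on CD by Slc10a2 (log2 fold change 4.07, q = 9.83e-05) and Fabp6 (5.14, q = 0.00585), and Fabp6 reached 2.65 to 144 CPM in ABX-treated mice. Of 8 markers of the proximal small intestine, 3 fell on each diet and 0 rose: Slc40a1, the folate carrier Slc46a1 and the alcohol dehydrogenase Adh6a. Their summed level was 726 to 2333 CPM in CD, 1120 to 1973 CPM in TDD, 680 to 1173 CPM in CD+ABX and 847 to 1122 CPM in TDD+ABX mice, whereas the ileum list summed to 2910 to 5934, 3151 to 4597, 3814 to 5359 and 3201 to 4037 CPM. Among lymphocyte markers, 4 of 8 fell with ABX on each diet. The part of these markers in the changes of Sis, Khk and Slc2a5 was not tested. The relation of members to ileum markers within the ABX groups was not tested, and only the mice at the extremes are described. CD+ABX mouse 4 had the lowest level of all 8 members in its group and the highest Fabp6, at 144 CPM, and TDD+ABX mouse 4 had the highest level of 7 members and the lowest Fabp6, at 3.34 CPM. CD+ABX mouse 5, however, had the highest level of all 8 members together with the highest Slc10a2 of its group, at 86.1 CPM, and 40.8 CPM of Fabp6, and TDD+ABX mouse 1 had the lowest level of 7 members with 14.4 CPM of Fabp6, the next to lowest of its group.

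Some other genes of fructose use fell as well. Among them was Tkfc, the triokinase that phosphorylates glyceraldehyde formed from fructose. Of 12 genes of fructose and triose entry, 4 fell with ABX on CD and 3 on TDD, and 1 rose on each diet, with a median of -0.04 and -0.08. The other 7 on CD and 8 on TDD did not pass. Over all genes, 7.37% passed downward on CD and 8.22% on TDD. Tkfc fell 2.44-fold on CD (log2 fold change -1.29, SE 0.19, q = 0.000512), without overlap, and 1.49-fold on TDD (-0.58, q = 0.0472). The gene that rose on both diets was Aldh1b1, a mitochondrial aldehyde dehydrogenase (0.34, q = 0.0257 on CD and 0.62, q = 0.000761 on TDD).

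A second list held genes of glucose release and gluconeogenesis, with the Pfkfb enzymes that set the balance between glycolysis and gluconeogenesis. Of its 12 genes, 3 fell on CD and 4 on TDD with ABX, and 0 rose, against 7.37% and 8.22% of all genes downward. Fructose bisphosphatase 1 (Fbp1, counted in both lists) was at 59.2 to 173 CPM in CD mice and at 6.70 to 12.4 CPM in CD+ABX mice, a 9.3-fold fall (log2 fold change -3.22, SE 0.40, q = 0.000125), and it fell 3.99-fold on TDD (-2.0, q = 0.00285). Glucose-6-phosphatase (G6pc) fell 5.5-fold on CD (-2.46, SE 0.38, q = 0.000745) and 3.02-fold on TDD (-1.59, q = 0.0105). Its partner Slc37a4, which carries glucose 6-phosphate into the endoplasmic reticulum, fell 1.74-fold on CD (-0.80, q = 0.00225) and 1.53-fold on TDD (-0.61, q = 0.0113). G6pc also fell with TDD in SPF mice (-1.68, q = 0.00578), from 56.2 to 122 CPM in CD mice to 19.2 to 44.0 CPM in TDD mice, a comparison in which Khk did not pass. Pfkfb3, which makes the activator of glycolysis fructose 2,6-bisphosphate, rose on TDD in SPF mice (1.09, q = 0.00876) and was 1 of the 4 that fell with ABX on TDD (-2.10, q = 0.000268), while on CD it did not pass (-0.60, q = 0.141).

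Some other enzymes of the same membrane went the other way, in a list chosen with earlier results of these data known. Of 14 brush border hydrolases that do not act on sugars, 8 rose with ABX on CD and 4 on TDD, and 0 fell. Over all 16306 genes, 858 rose on CD and 1164 on TDD. The other 6 hydrolases on CD and 10 on TDD did not pass, and the median was 0.49 and 0.36 on the log2 scale. Aminopeptidase N (Anpep) was at 4228, 3669, 2806, 5175 and 4260 CPM in CD mice 1 to 5 and at 7039, 9183, 8152, 7140 and 11448 CPM in CD+ABX mice 1 to 5. It rose 2.13-fold (log2 fold change 1.09, SE 0.19, q = 0.00114), and 1.74-fold on TDD (0.80, q = 0.00854). Glutamyl aminopeptidase (Enpep) rose 2.05-fold on CD (1.03, q = 0.000555) but did not pass on TDD (0.46, q = 0.0509), and Xpnpep2, a peptidase for peptides with proline, rose on both (0.84, q = 0.0076 on CD and 0.79, q = 0.0113 on TDD). No gene of this list passed in the direction of Sis.

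**Figure D5:**
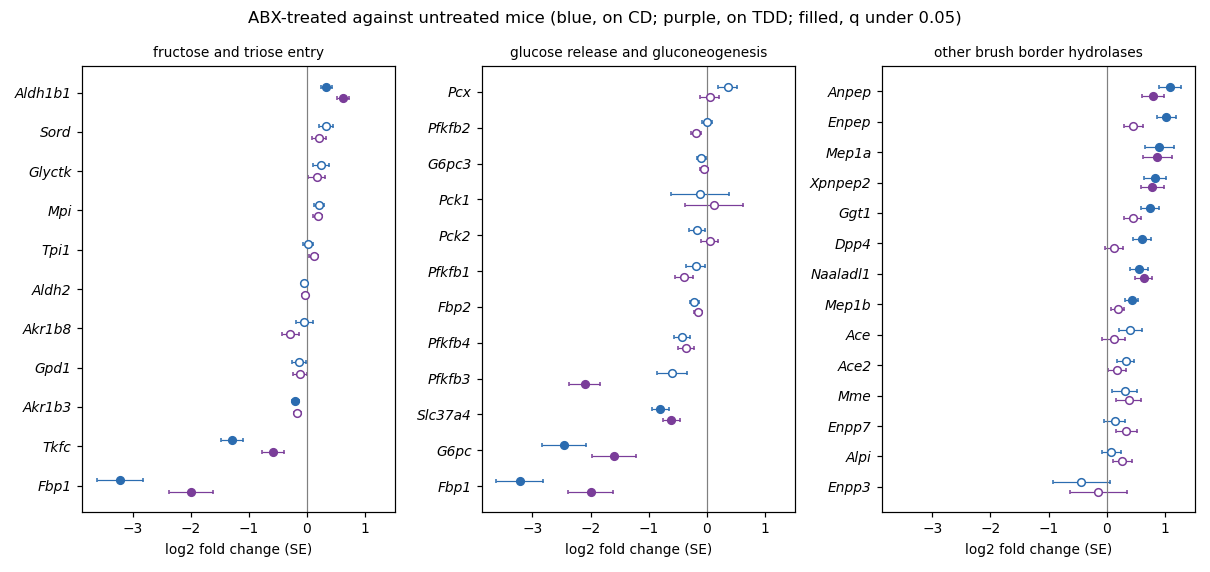
Log2 fold change with its SE for ABX-treated against SPF mice on CD (blue) and on TDD (purple), for the genes of 3 lists that are reported here, filled where q was under 0.05. Tkfc, Fbp1, G6pc and Slc37a4 lie to the left on both diets, and the filled hydrolases, with Anpep at the top, lie to the right.

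Among 12 genes that sense or respond to sugar, 3 rose and 3 fell with ABX on CD, and 2 rose and 1 fell on TDD. Over all 16306 genes, 858 rose and 1202 fell on CD, and 1164 rose and 1341 fell on TDD. Mlxipl, which encodes the carbohydrate response factor ChREBP known to act on Khk and G6pc, fell on CD from 369 to 474 CPM to 260 to 312 CPM, without overlap (log2 fold change -0.52, q = 0.00201), and did not pass on TDD (-0.26, q = 0.0753). Srebf1, a regulator of lipid synthesis, fell on CD as well (-0.49, q = 0.0025) but not on TDD (0.02, q = 0.882), and Trpm5, a channel of taste and tuft cells, rose on CD (0.86, q = 0.00544) and on TDD (0.73, q = 0.014). For diet in SPF mice, 1 of these 12 genes rose and 2 fell, against 1085 and 1257 of all 16306 genes. Srebf1 (-0.38, q = 0.00963) and Arrdc4 (-0.5, q = 0.0115) fell on TDD, and Klf15, a transcription factor linked to fasting, rose (1.67, q = 3.12e-05). With ABX, Klf15 rose on CD (0.87, q = 0.0068) and did not pass on TDD (-0.44, q = 0.12). Of 15 transcription factors known from these promoters, 4 rose with ABX on each diet and 0 fell, among them Cdx2 on CD (0.40, q = 0.0138; 0.22, q = 0.148 on TDD) and Cdx1 on TDD (0.30, q = 0.00693; 0.13, q = 0.22 on CD). In the remaining lists, 5 of 21 glycolysis genes fell with ABX on CD and 0 rose, led by Hk3, a hexokinase of blood cells (-1.04, q = 0.000455; -0.18, q = 0.463 on TDD). On TDD 1 glycolysis gene fell and 1 rose, the latter being Pgam1, a phosphoglycerate mutase (0.34, q = 0.0104; 0.11, q = 0.443 on CD). Of 8 galactose genes 1 rose and 1 fell on CD, and 2 rose and 0 fell on TDD.

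Patterns over the 20 mice were compared by Pearson's r of log2(CPM + 0.5) with each of the 11135 genes that had a mean of at least 5 CPM. All 4 groups enter these values, so differences between groups are part of r. Khk was most like Slc37a4 (r = 0.982), followed by Leap2, an antimicrobial peptide gene (0.947), and Sis (0.945). Sis was most like Slc37a4 (0.971), Gm48850, a processed pseudogene (0.957), and Slc2a2 (0.946). The pattern of Slc5a1 was close to those of Mgam (0.970) and Slc2a7 (0.956), and that of Slc2a5 to those of Slc5a1 (0.950) and Acsm5 (0.942). Mgam was nearest to Slc5a1 (0.970), Slc2a7 (0.960) and Acsm5 (0.951). Slc2a2 was nearest to Sis (0.946), Mgam (0.943) and Spns2 (0.934). Lct and Treh had no other member among their 3 nearest genes, which were Cyp4v3 (0.884), Gdpd2 (0.873) and Xpr1 (0.868) for Lct and Ak3 (0.951), Ppp6r3 (0.932) and Clcn3 (0.926) for Treh.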

How the data were processed

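Poly-A RNA of 20 ileal pieces was sequenced, and the authors estimated transcript abundance with kallisto 0.44.0 on GRCm38, per the labels. The deposited gene table holds estimated counts as whole numbers, and the deposited transcript tables hold TPM and estimated counts per mouse. Gene counts equalled the sums over transcripts for all 8 members. No pooled columns were used. The library totals of the gene table were 36676963 to 58662617. The precision of each value is given by the spread of 5 mice.

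The members and gene lists were chosen with earlier results of these data known. Genes with 0.5 CPM in at least 1 mouse were fitted with edgeR 4.0.16 (R 4.3.3; TMM scaling, robust quasi-likelihood, 4 groups in 1 fit) and called at q under 0.05. A fold of at least 2 was a stricter rule. The fit was tested on simulated data. DESeq2 1.42.0 and limma 3.58.1 served as alternatives. Transcript shares, for transcripts with a mean of at least 1 TPM and 5% of their gene, were compared by two-sided exact permutation tests (scipy 1.17.1).

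All members were named, with up to 3 genes per list and comparison, those of lowest q under 0.05. A gene named for 1 ABX comparison may be given for both. Some genes that this rule names are not reported here. Replicate numbers did not pair the mice: 5 of 30 pairs of same-numbered mice had a correlation over 0.1. Promoter sequences are from RefSeq, with all 8 members matched, and transcript models from GENCODE M21, which held 109294 of 113193 deposited transcripts.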

Additional observations from a re-analysis of the deposited data

Results flagged for a closer look

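TDD+ABX mouse 4 was far above the other 4 mice of its group for 5 of the 8 members, by Dixon's test at the 95% level: Sis at 6275 CPM, Mgam at 7257 CPM, Slc5a1 at 4457 CPM, Slc2a2 at 531 CPM and Khk at 379 CPM. Chance gives such a value in about 1 of 20 groups, and members that move together are not separate cases. Its Fabp6 (3.34 CPM) and Slc10a2 (13.2 CPM) were the lowest of its group, and their part in these values was not tested. Without this mouse, 5 members rather than 3 fell with ABX on TDD. The mouse was picked for its high values, and leaving it out lowers the mean and spread of its group by construction. The higher count is therefore no support for a fall, and the share of all genes in that fit is not given.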

How the results depend on the processing

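The 7 member results past the threshold kept their direction in all 84 alternatives that did not leave out a single mouse, and 81 of these kept the call. The exceptions were Slc5a1 on TDD in SPF mice without a filter on low values (q = 0.0502) and with the replicate block (q = 0.0629), and Slc2a5 with ABX on TDD with the replicate block (q = 0.0567). Replicate numbers did not pair the mice (correlations of -0.417 to 0.289, with 1 of 20 mice nearest to its own number), and a replicate block left 1, 0, 2, 2 and 0 members called for diet in SPF mice, diet in ABX-treated mice, ABX on CD, ABX on TDD and the interaction. The alternatives without robust estimation, relative to the enterocyte list and without both CD mouse 2 and CD+ABX mouse 4 were chosen after seeing the data. Shares of all genes are given only for the main edgeR fit of all 20 mice, not for the alternatives.

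For diet in SPF mice the count of 2 became 1 without a filter, 3 with DESeq2, with Mgam added, and 4 without both of those mice. For diet in ABX-treated mice the count of 0 became 1 with DESeq2, with limma on log2(TPM + 1) and with limma on log2(TPM + 0.1). For ABX on TDD the count of 3 became 5 with DESeq2, 6 with the 2 groups alone and 6 without both of those mice. The members gained on TDD were Mgam (q = 0.0295) and Slc2a2 (q = 0.0302) with DESeq2, and these 2 and Slc5a1 in the other 2 cases. The cause was not tested. Leaving out each mouse in turn gave 1 to 3 calls for diet in SPF mice, 0 to 1 for diet in ABX-treated mice and 2 for ABX on CD. It gave 1 to 5 for ABX on TDD, with the lowest count without TDD+ABX mouse 1 or 2, and 0 for the interaction.

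Log2 fold changes that turned direction belonged to members that had not passed the test. Treh on TDD in SPF mice was -0.00477 with RLE scaling, -0.00479 with DESeq2, -0.00862 without a filter, -0.00896 with 0.5 CPM required in 5 mice, -0.18 without both of those mice and -0.06 relative to the enterocyte list, and -0.18 to 0.09 over the fits that left out 1 mouse. Khk in the same comparison was -0.04 relative to that list. With ABX on TDD, Lct was 0.02 with limma on either TPM scale and -0.13 to 0.0087 with 1 mouse left out, and Treh was -0.001 with upper-quartile scaling, -0.02 relative to the enterocyte list and -0.00753 to 0.07 with 1 mouse left out. The interaction of Slc2a2 was -0.000411 with upper-quartile scaling, -0.11 without both of those mice and -0.23 to 0.17 with 1 mouse left out. Differences of the summed enterocyte level ran, with 1 mouse left out, from -1444 to 4480 CPM for diet in SPF mice, 1794 to 6117 CPM for diet in ABX-treated mice, -5180 to 745 CPM for ABX on CD and -1517 to 663 CPM for ABX on TDD.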
